A study of Bos taurus with 8 samples.

Results

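The miR-148 family, which takes in miR-152, was followed in blood plasma and blood cells of cattle by small RNA sequencing. It is described here through 3 of the 704 miRNA names in the count table, bta-miR-148a, bta-miR-148b and bta-miR-152, which were taken by name and are called miR-148a, miR-148b and miR-152 below. Blood came from healthy, non-pregnant, normally cycling Holstein-Friesian cross cows aged 20 to 25 months. Each of 4 cows, numbered 44 to 47, gave 1 plasma library from 0.7 mL of plasma that had been centrifuged and filtered, and 1 blood cell library from 250 μL of a resuspended pellet of red blood cells and buffy coat, so that the 8 libraries form 4 pairs. The comparison of the fractions served to tell miRNAs carried by blood cells from those that may reach plasma from other tissues.

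MiRNAs guide Argonaute proteins to messenger RNAs, mainly through a short stretch near their 5′ end called the seed, and members of a family share that seed. MiR-148a, miR-148b and miR-152 share 1 seed, and in human cells the maintenance DNA methyltransferase DNMT1 is a known target of the family. MiR-148a is known as an abundant miRNA of liver and of milk, while miR-148b and miR-152 lie in human within genes for the zeta subunits of the coatomer, the coat of vesicles that bud from the Golgi. In the authors' table, on the bovine build bosTau4, mature miR-148a lies on chromosome 4 (72669243 to 72669264, plus strand), miR-148b on chromosome 5 (28577715 to 28577736, minus strand) and miR-152 on chromosome 19 (39650399 to 39650420, plus strand). Each spans 22 bases. Small RNA libraries do not take up every sequence equally well, so levels of the 3 names are set side by side with this limit. By gene name in the RefSeq annotation of a later bovine assembly, ARS-UCD2.0, MIR148B lies within COPZ1 and MIR152 within COPZ2, whereas MIR148A overlaps no protein-coding gene and only a further miRNA gene, MIR148D. MIR152 also overlaps MIR148C, which has the synonym MIR2957. In the table the name miR-2957 occupies the site of miR-152 on the opposite strand, and it had 1 read, in the plasma of cow 47, and 0 in the other libraries.

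The plasma libraries held 1453384 to 4296460 miRNA reads and the blood cell libraries 11169204 to 14471979. Values are given in RPMM, the authors' normalised read count, which scales the reads of a name to 1000000 bovine miRNA reads of its library. Raw counts were tested with the quasi-likelihood test of edgeR, in a paired model with a term for the cow and TMM scaling between libraries, and a name was called at an adjusted p under 0.05. Red blood cell miRNAs (miR-451, miR-486 and miR-144) made up 48.8% to 56.1% of the RPMM in blood cells and 8.92% to 18.0% in plasma, and TMM scaling lowered plasma levels relative to blood cell levels. Over the 209 names tested, the median log2 fold change (plasma against blood cells) was 0.08 with TMM and 1.76 with library totals, with 95 names called higher and 83 lower with TMM, against 140 and 52 with library totals. A read share says nothing of the amount of miRNA in a volume of blood, and in the blood cell fraction fewer cells of a type cannot be told apart from less RNA per cell.

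MiR-148a was the most abundant family member in every library and had several times more RPMM in plasma than in blood cells. In plasma it had 18137 RPMM in cow 44, 17612 in cow 45, 15115 in cow 46 and 25569 in cow 47. In blood cells it had 4174, 3639, 4210 and 3770 RPMM in the same order. All plasma values lay above all blood cell values, as did those of 64.1% of the 209 tested names, and cow 47 had the highest plasma level. The means were 19108 ± 4504 and 3948 ± 287 RPMM (SD, n = 4 each), a ratio of 4.84, and the ratio within a cow ran from 3.59 in cow 46 to 6.78 in cow 47. MiR-148a ranked 10 to 21 among the 704 names in plasma libraries and 24 to 28 in blood cell libraries.

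After TMM scaling the difference in miR-148a was much smaller. The TMM-scaled CPM (reads per 1000000 of the TMM-adjusted library size) ran from 7953 to 17883 in plasma and from 6110 to 7966 in blood cells, so that the groups overlapped by a narrow margin, whereas 41.6% of the tested names had every plasma value above every blood cell value on this scale. Cow 46 showed a plasma to blood cell ratio of 0.998, while cow 47 showed the widest (2.46). The log2 fold change was 0.58 (standard error 0.22, edgeR adjusted p = 0.0496, higher in plasma in 3 of 4 cows), which placed miR-148a among the 45.5% of tested names called higher in plasma. This call was at the threshold. It was lost in 9 of 14 alternatives, over which the adjusted p ran from 4.68e-05 to 0.147, and without cow 47 the log2 fold change was 0.38 (adjusted p = 0.147). With library totals it was 2.25 (adjusted p = 4.68e-05), in a fit that called 67.0% of tested names higher in plasma. Relative to the median of all tested names it was 0.49 under either scaling, since a change of scaling moves all names by nearly the same amount. That value was 0.17 without cow 47 and 0.13 when all names with a read were tested.

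MiR-148b, the member from the COPZ1 locus, went the other way and was lower in plasma. Plasma held 417, 432, 355 and 249 RPMM of it in cows 44, 45, 46 and 47, and blood cells held 793, 540, 735 and 569. The highest plasma value was below the lowest blood cell value, which was so for 23.0% of the tested names, and cow 47 had the lowest plasma level. The means were 363 ± 83.3 and 659 ± 124 RPMM (SD, n = 4 each). Within a cow, blood cells held 1.25 (cow 45) to 2.28 (cow 47) times the RPMM of plasma. MiR-148b ranked 98 to 106 in plasma libraries and 55 to 62 in blood cell libraries.

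The difference in miR-148b was larger than the spread between replicates. The log2 fold change was -2.55 (standard error 0.20, edgeR adjusted p = 3.65e-05, lower in plasma in 4 of 4 cows), and 39.7% of tested names were called lower in plasma. It was called in all 14 alternatives, with log2 fold changes of -2.74 to -0.87 and adjusted p-values up to 0.00716. The smallest of these came from library totals. Relative to the median of all tested names the value was -2.63 under both scalings, which again move all names nearly alike, and -2.68 without cow 47. With TMM scaling the groups did not overlap, as for 38.8% of the tested names in this direction. Library totals called 24.9% of the tested names lower in plasma, and the fit without cow 47, where miR-148b was at -2.47, called 37.3% lower. MiR-148b had 606 to 1376 reads in plasma libraries and 6600 to 8861 in those of blood cells, so counting error was small against the difference.

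Of the 3 members, miR-152 had the widest gap between the fractions in 3 cows and no plasma reads in the fourth. In plasma its level was 1275 RPMM in cow 44, 1404 in cow 45 and 945 in cow 46, from 1853, 4468 and 1720 reads, while the plasma library of cow 47 had 0 reads. In blood cells it had 6.71, 3.94, 5.50 and 2.84 RPMM in cows 44 to 47, from 75, 57, 66 and 33 reads. The blood cell level was thus low in all cows, and the 3 plasma levels above 0 were 172 to 357 times those of the same cow's blood cells. In cow 47 the order was reversed. A count of 0 in that plasma library allows up to 0.696 RPMM (3 reads), or 0.856 RPMM by the two-sided 95% exact Poisson interval. The blood cell library of cow 47 was at 2.84 RPMM (95% exact Poisson interval 1.96 to 3.99).

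The test of miR-152 turned on this library. Over all 4 cows the log2 fold change was 5.01 (standard error 2.10, edgeR adjusted p = 0.0628), and it was not called. Without cow 47 it was 6.12 (standard error 0.39, adjusted p = 5.32e-06), while 44.5% of tested names were called higher in plasma in that fit. Leaving out any other cow gave 4.11 to 4.67, none of them called. Without the term for the cow it was called at 5.81 (adjusted p = 0.00621). Over all 14 alternatives the value was between 4.11 and 6.77 and was called in 8, with adjusted p-values of 5.32e-06 to 0.250. MiR-152 passed the filter on low levels through plasma alone, as 70 of the 209 tested names did, so the filter favoured the direction higher in plasma. The plot of levels by fraction shows the 3 steep lines and the crossing line of cow 47.

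**Figure D1:**
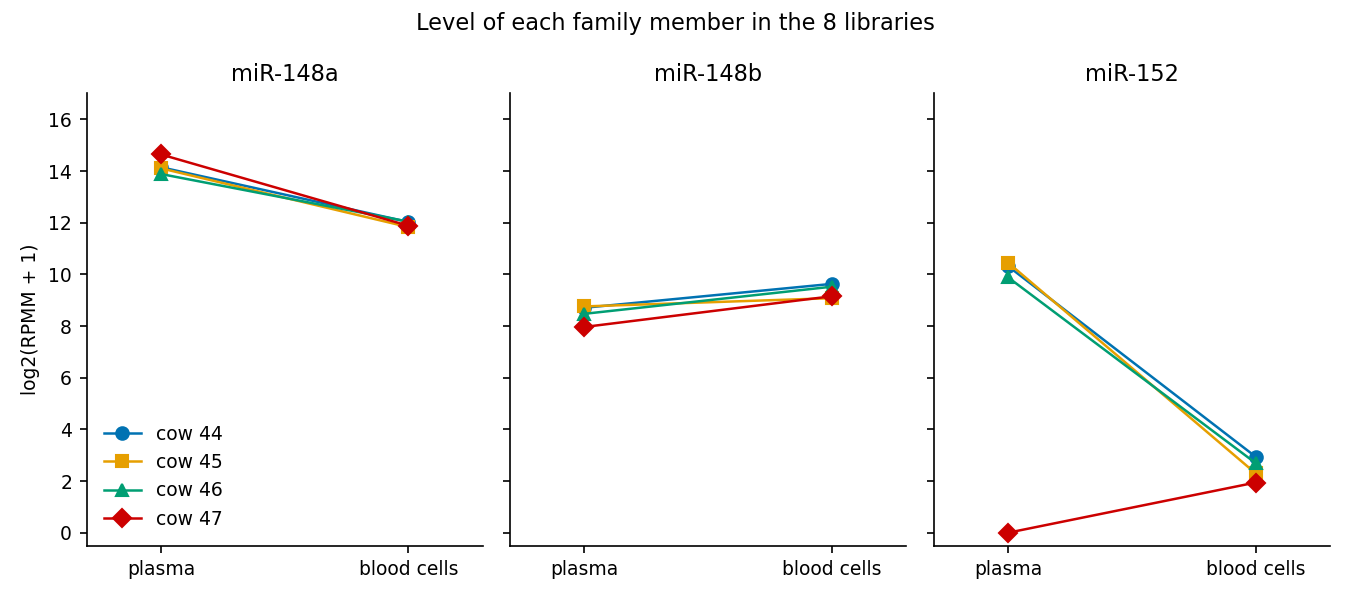
Level of miR-148a, miR-148b and miR-152 as log2(RPMM + 1), with the plasma and blood cell library of each cow joined by a line. MiR-148a is higher in plasma in all 4 cows (15115 to 25569 against 3639 to 4210 RPMM), miR-148b is lower in all 4, and miR-152 is at 945 to 1404 RPMM in 3 plasma libraries and at 0 in cow 47.

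The plasma library of cow 47 was the deepest of the plasma libraries, and at the level of the other plasma samples it would have held 4073 to 6048 reads of miR-152. MiR-152 was alone among the 209 tested names in having 0 reads in any plasma library. It was also the only name of 704 with 0 reads in 1 library of a fraction and at least 100 RPMM in the other 3 libraries, a pattern sought with this 0 already known. No name showed the opposite pattern, at least 100 RPMM in 1 library and at most 3 reads in each of the others, but miR-199a-3p missed it by 1 read, with 4280 RPMM in the plasma of cow 46 and 1 to 4 reads in the other plasma libraries.

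Wide gaps between plasma libraries were also found for 4 further names. By a measure chosen after values were seen, a highest level in the fraction of at least 100 RPMM and a lowest under 1% of it, 5 names of 704 stood out in plasma, miR-152, miR-199a-3p, miR-199c, miR-339a and miR-339b. MiR-199c had 5 reads in the plasma of cow 46, where miR-199a-3p was high, and lay between 2915 and 4187 RPMM in plasma of cows 44, 45 and 47. In the plasma of cow 45, miR-339a had 1167 RPMM and miR-339b 3 reads, whereas the other plasma libraries held 2 to 8 reads of miR-339a and 1320 to 1626 RPMM of miR-339b. These 4 names thus formed pairs of like name in which 1 was high where the other was low, while none of the 5 names was high in cow 47 alone.

 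In the plasma of cow 47 miR-148a was 7432 RPMM above the next highest plasma level, and miR-148b was lower than in the other plasma libraries. With TMM scaling the gap in miR-148b was narrower, at 174 CPM against 187 to 232. The summed RPMM of all bovine names was 4281 short of 1000000 in that library, against 1298 to 1882 in the other plasma libraries and 893 to 1005 in blood cells, so more of its normalised reads than elsewhere lay outside the names analysed here. Whether reads of miR-152 were counted under a name outside the table was not tested.

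The plasma library of cow 47 also stood apart for other names. It had the lowest plasma level of the 4 cows for 135 of the 209 tested names, miR-148b among them. It had the highest for 21, miR-148a among them. The summed red blood cell miRNAs were at 18.0% of the RPMM there, against 8.92% to 16.1% in the other plasma libraries. MiR-486 made up most of that sum and was highest in cow 47 (162555 RPMM). The other names of that list were not, as miR-451 had 17297 RPMM there and 21769 in cow 46. MiR-144 had 536 RPMM there and 758 in cow 45. Leukocyte miRNAs, a list of 8 whose sum is mostly miR-142-5p, were at 3.35% against 5.60% to 7.08%. Within that list miR-146b was highest in cow 47 (64.1 RPMM), and miR-155 had 247 RPMM there against 208 in cow 46. The remaining leukocyte names were lowest in cow 47. Liver miRNAs, a list of 5 led by miR-192, were at 13.2% against 7.51% to 11.0%. Their part in the family's values was not tested.

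Within a library the members can be compared without any scaling between libraries, and their proportions differed between the fractions. MiR-148a took 91.5%, 90.6%, 92.1% and 99.0% of the family's reads in the plasma of cows 44, 45, 46 and 47, and 83.9%, 87.0%, 85.0% and 86.8% in their blood cells. Every plasma share was above every blood cell share. The difference was 7.58 percentage points on average (SD 3.55, n = 4 pairs, exact two-sided permutation test of the paired differences, p = 0.125, the smallest that 4 pairs allow). The exact binomial (Clopper-Pearson) intervals of the shares were narrow, at 90.3% to 90.8% for the lowest plasma share and 86.7% to 87.3% for the highest blood cell share. Such intervals cover counting error only, since PCR copies are not independent molecules.

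The place of the second most abundant member passed from miR-148b in blood cells to miR-152 in plasma. MiR-148b made up 12.9% to 15.9% of the family's reads in blood cells and 0.964% to 2.22% in plasma. MiR-152 made up 0.0655% to 0.135% in blood cells and 6.43%, 7.22% and 5.76% in the plasma of cows 44, 45 and 46. Plasma thus had the order miR-148a, miR-152, miR-148b in 3 cows, with no overlap between neighbours, and blood cells had the order miR-148a, miR-148b, miR-152 in 4 of 4. The plasma of cow 47 held no miR-152 reads out of 111223 family reads, and its share of miR-148b was the lowest.

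**Figure D2:**
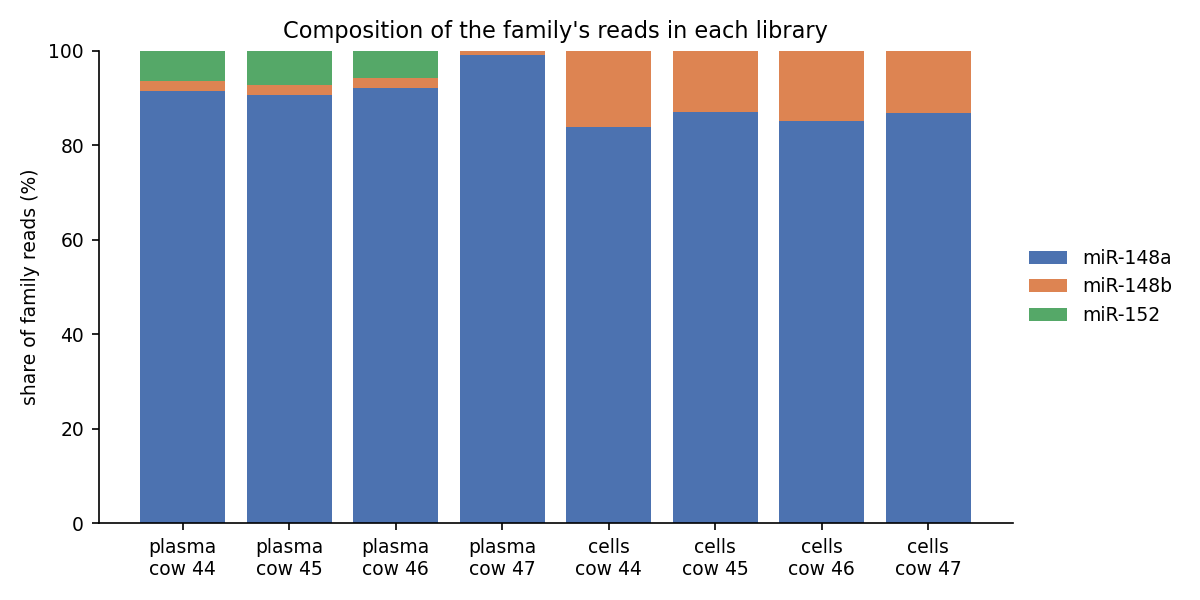
Share of the family's reads under each of the 3 names, in percent, in each of the 8 libraries (4 plasma libraries on the left, 4 blood cell libraries on the right). MiR-148b holds 12.9% to 15.9% of the family's reads in blood cells and at most 2.22% in plasma, and miR-152 is visible only in the plasma of cows 44, 45 and 46.

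The ratio of miR-148a to miR-148b was the steadiest of the contrasts between members. It was 43.5, 40.7, 42.6 and 103 in the plasma of cows 44, 45, 46 and 47, and 5.27, 6.74, 5.73 and 6.63 in their blood cells. The plasma values of 3 cows lay close together, and that of cow 47 was more than double them. On the log2 scale the ratio was 3.12 higher in plasma (SD 0.58, n = 4 pairs, range 2.60 to 3.95, exact two-sided permutation test p = 0.125, the smallest that 4 pairs allow, adjusted p = 0.375 over the 3 pairs of members). Without cow 47 the mean was 2.84.

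Ratios to miR-152 differed most between the fractions in cows 44, 45 and 46, and their averages turned on cow 47. In the 3 other cows plasma held 12.5 to 16.0 reads of miR-148a per read of miR-152, while blood cells of the 4 cows held 622 to 1326. Plasma of these 3 cows held 0.308 to 0.375 reads of miR-148b per read of miR-152, against 118 to 200 in blood cells. With 0.5 reads added to each count, the log2 ratio of miR-148b to miR-152 differed by -5.57 on average, plasma minus blood cells (SD 6.01, lower in plasma in 3 of 4 cows, p = 0.25 by an exact two-sided permutation test, adjusted p = 0.375 over the 3 pairs), and by -8.58 without cow 47. That of miR-148a to miR-152 differed by -2.45 (SD 6.57, lower in plasma in 3 of 4 cows, p = 0.625 by the same exact test, adjusted p = 0.625) and by -5.73 without cow 47, where 3 pairs cannot give a p under 0.25.

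As a sum, the family followed miR-148a. The 3 names together had 19830, 19448, 16415 and 25818 RPMM in the plasma of cows 44 to 47, and 4974, 4183, 4950 and 4341 in their blood cells. The means were 20378 ± 3935 and 4612 ± 409 RPMM (SD, n = 4 each), a ratio of 4.42. With TMM the log2 fold change of the sum was 0.46 (standard error 0.21, edgeR adjusted p = 0.0848), and with library totals 2.13 (adjusted p = 3.61e-05). The sum was called in 3 of 14 alternatives, and without cow 46 it was called at 0.65 (adjusted p = 0.0346). A read moved from 1 member to another leaves the sum as it is, so the sum cannot show whether reads were moved. The plasma of cow 47 had the highest sum, as it had the highest level of miR-148a. Whether reads of 1 member were counted under another was not tested.

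Among all tested names the family spanned much of the range of fold changes. In the order of log2 fold changes from the highest, miR-152 stood at place 29 of 209, miR-148a at 96 and miR-148b at 165. The plot of fold change against level shows miR-148a among the abundant names, close to 0, and miR-148b and miR-152 at nearly the same mean level on opposite sides of 0. The plot of fold changes under each setting shows that miR-148b stays below 0 and the other 2 members above 0 throughout, whereas whether miR-148a and miR-152 are called varies.

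**Figure D3:**
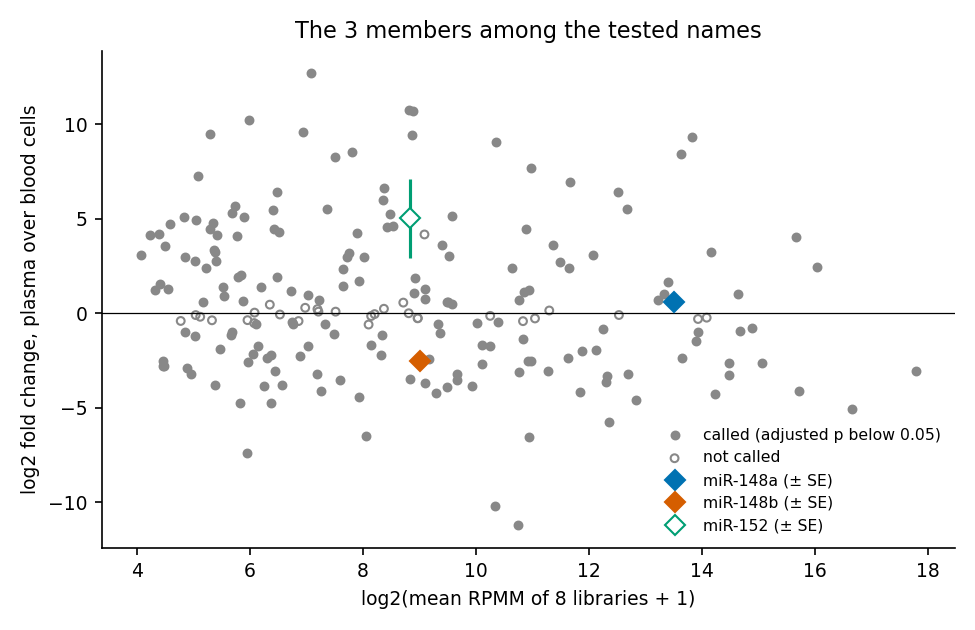
Log2 fold change, plasma against blood cells (edgeR, TMM scaling, paired by cow), plotted against log2(mean RPMM of the 8 libraries + 1) for the 209 tested names; filled symbols have an adjusted p under 0.05 and bars on the 3 members are standard errors. MiR-152 lies at 5.01 with a standard error of 2.10 and is not called, miR-148a lies at 0.58 and miR-148b at -2.55.

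**Figure D4:**
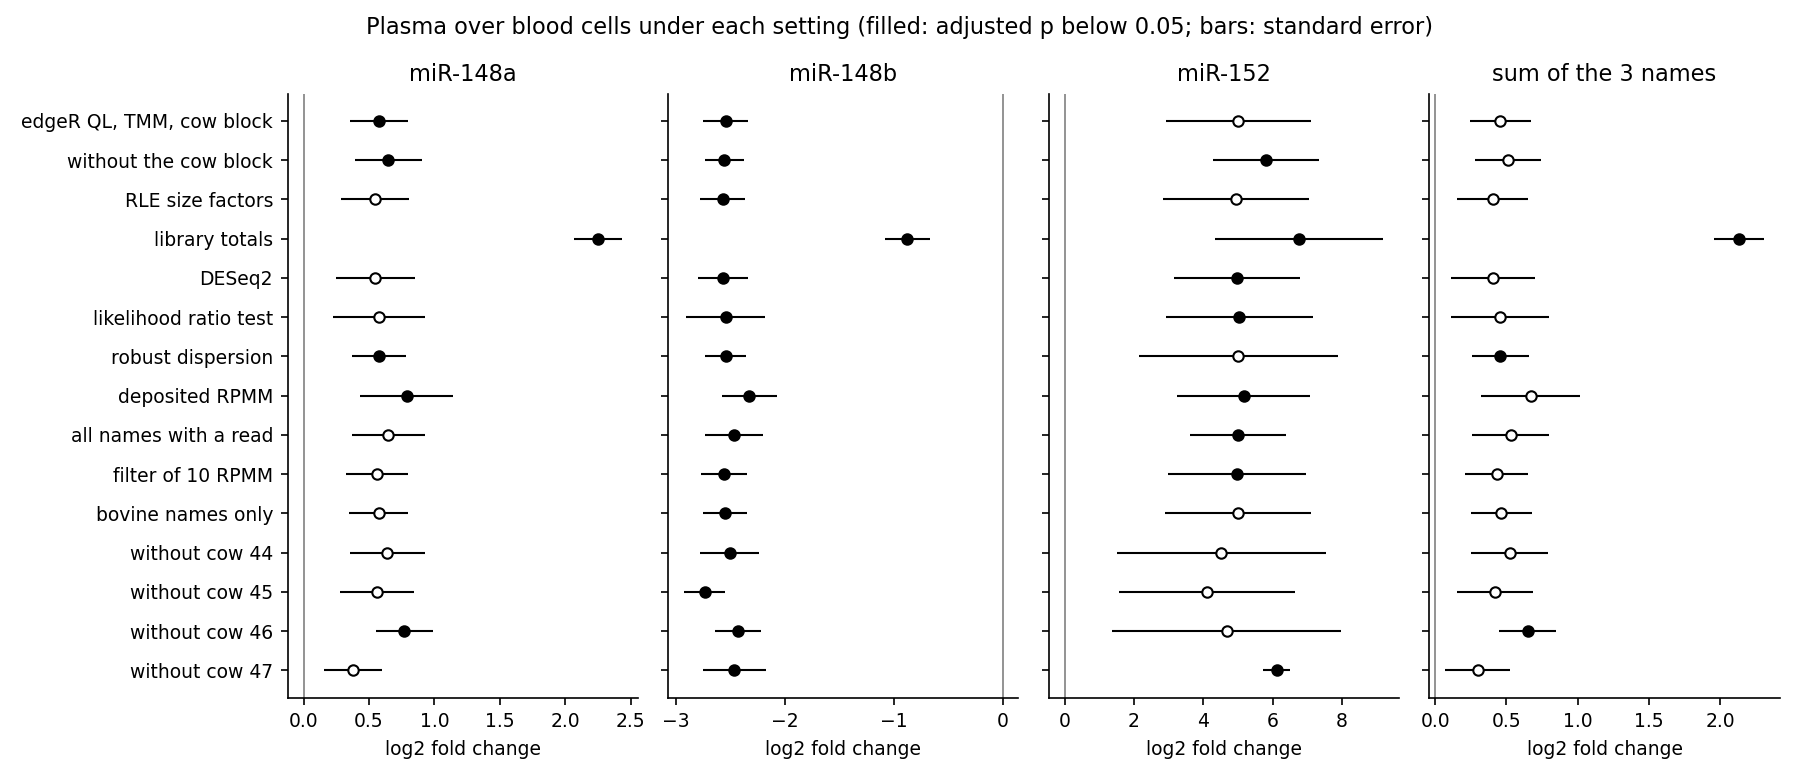
Log2 fold change, plasma against blood cells, for each member and for their sum under the reported fit and 14 alternatives; bars are standard errors and filled symbols have an adjusted p under 0.05. Library totals move miR-148a from 0.58 to 2.25 and miR-148b from -2.55 to -0.87, and leaving out cow 47 narrows the error of miR-152 from 2.10 to 0.39.

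The variation between cows was unlike among members. In blood cells the coefficient of variation of RPMM was 7.27% for miR-148a, 18.8% for miR-148b and 35.9% for miR-152, against a median of 18.8% over the 209 tested names. In plasma it was 23.6%, 22.9% and 70.0%, against a median of 24.0%. Only 16 tested names varied less than miR-148a between the blood cell libraries. The 33 to 75 reads of miR-152 in blood cells gave exact Poisson intervals that did not overlap between the lowest (1.96 to 3.99 RPMM) and the highest (5.28 to 8.41 RPMM) library. Without cow 47 the coefficient of variation of miR-152 in plasma was 19.6% (n = 3).

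The names most like each member were sought by the Euclidean distance of log2(RPMM + 1) over the 8 libraries, centred on each name's mean. This distance takes in the difference between the fractions, so names at a small distance have similar fold changes by construction. For miR-148a the nearest names were miR-181b (distance 0.85), miR-532 (1.01) and miR-3431 (1.02), and these had log2 fold changes of 0.48, 0.24 and 0.61. For miR-148b they were miR-19b (0.50), of the miR-17-92 cluster, miR-26b (0.55) and miR-1271 (0.56), with log2 fold changes of -2.55, -2.39 and -2.76. For miR-152 the nearest were much farther off, miR-877 (7.87), miR-375 (8.04) and miR-23a (8.08), and none of these was at 0 in the plasma of cow 47. The 0 of miR-152 in that library enters all its distances, whose median over the tested names was 10.11, against 3.80 for miR-148a and 4.38 for miR-148b. The distance was 4.56 between miR-148a and miR-148b, 10.27 between miR-148a and miR-152 and 11.91 between miR-148b and miR-152. Seen from miR-148a, miR-148b was at place 128 of the tested names and miR-152 at place 200. Seen from miR-148b, miR-148a was at place 110 and miR-152 at place 194. Seen from miR-152, miR-148a was at place 112 and miR-148b at place 155.

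MiRNAs known from other tissues and from blood cells give a frame for these values. Of 9 stromal and smooth muscle miRNAs, all of them tested, 6 were called higher in plasma, 2 were called lower and 1 was not called. Over all tested names 45.5% were called higher and 39.7% lower. The median log2 fold change of the 9 was 6.41 against 0.08 over all tested names, and 5 of the 9 passed the filter through plasma alone. MiR-145, a smooth muscle miRNA, had 175 ± 14.9 RPMM in plasma (SD, n = 4) and 0.703 ± 0.560 in blood cells (SD, n = 4), with 165 RPMM in the plasma of cow 47, where miR-152 had 0. MiR-143, from the same cluster, had 12007 RPMM there against 12383 to 13442 in the other plasma libraries. The list did not move together in that library. There miR-100 was highest, at 783 RPMM against 310 to 362, and miR-199a-5p was lowest, at 249 against 327 to 452. One of the names called lower, miR-199a-3p, has a near-identical sequence to another name, miR-199c, and its value is uncertain, as its plasma level lay almost wholly in cow 46. The other was miR-125b, at -1.10 with TMM and 0.58 with library totals.

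Of 5 liver miRNAs, 4 were tested and called higher in plasma, with a median log2 fold change of 6.82, and 2 of the 4 passed the filter through plasma alone. In the same fit 45.5% of all tested names were called higher. MiR-192, which is made in liver and intestine, had 108988, 94615, 74141 and 129668 RPMM in the plasma of cows 44, 45, 46 and 47. MiR-122, made by hepatocytes, had 75.0, 36.8, 47.3 and 814 RPMM in the same order, and miR-194 had 1286, 864, 784 and 916. The highest plasma level was in cow 47 for 4 of the 5 liver names and in cow 44 for miR-194, while the lowest fell in cow 44, 45 or 46 depending on the name. Both arms of miR-126, an endothelial miRNA, were called higher in plasma, with a median log2 fold change of 6.48, and both passed the filter through plasma alone.

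Of 8 leukocyte miRNAs, all tested, 5 were called lower in plasma and 3 were not called, with a median log2 fold change of -0.50, whereas with library totals 6 were called higher. Over all tested names 39.7% were called lower and 45.5% higher with TMM, against 24.9% lower and 67.0% higher with library totals. All 3 red blood cell miRNAs were called lower in plasma, with a median log2 fold change of -5.07, and lower again with library totals. MiR-148b, at -2.55, lay between the medians of the leukocyte and red blood cell lists. The leukocyte names ran from -2.51 for miR-142-3p, close to miR-148b, to 0.08 for miR-155. These lists held few names, and no test of them against other names was made.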

How the data were processed

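Small RNA libraries (TruSeq kit, reads of 36 nucleotides) were made from 5 μL of RNA each. The authors removed reads without adapter, with undetermined bases or under 15 nucleotides, and mapped the rest with sRNAbench 1.0 and, per the labels, Bowtie 0.12.9 to bosTau4 and miRBase 21, allowing 1 mismatch. The deposited raw counts hold 565 bovine names and 139 human homologues. The deposited RPMM are a normalised signal with separate denominators for both kinds of name, so human homologues were put on the bovine scale here.

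A name was tested where 3 or more of the 4 libraries of a fraction reached 25 RPMM (209 names). Counts were fitted with edgeR 4.0.16 (limma 3.58.1, R 4.3.3) by the quasi-likelihood test, with a term for each cow, TMM scaling, and p-values adjusted over all 209 names (Benjamini-Hochberg). Standard errors are the absolute log2 fold change over the square root of F. The pairing comes from the animals; deviations of same-cow libraries had correlations of 0.05 to 0.23, against -0.17 to 0.11 between cows. Ratios within libraries, with 0.5 reads added, were compared by exact permutation tests of the 4 paired differences in SciPy 1.17.1.

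The members and lists were chosen with earlier results of these data known. Besides the members, the rule named other names beginning with miR-148 or miR-152 (none was found), names with the same seed (not looked up), the 3 nearest names by distance, names missing from or confined to a single library of a fraction, and up to 4 of each list. MiR-2957, miR-199c, miR-339a, miR-339b, miR-100 and miR-199a-5p fall outside it and were chosen after values were seen. The alternatives were no term for the cow, scaling by RLE or by library totals, DESeq2 1.42.0, edgeR with its likelihood ratio test, with robust dispersions or on the deposited RPMM, looser filters, tests of bovine names alone, and the omission of each cow. The fit was tested on simulated data. Mature sequences are not shown, and RT-qPCR and tissue panels were not analysed here.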

Additional observations from a re-analysis of the deposited data

Results flagged for a closer look

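In 28 groups of 4 libraries, the highest or lowest value was set against the gap to its neighbour (Dixon's test at its 95% critical value), and 5 stood apart, where chance gives about 1 in 20. The 5 are related measures of 1 library, the plasma of cow 47, and 3 of them contain the 0 of miR-152, which was known when the members were chosen, so their number is not read against chance. MiR-152 was at 0 on the log2(RPMM + 1) scale there, against 9.89 to 10.46 in the other plasma libraries. With 0.5 reads added, the log2 ratio of miR-148a to miR-152 was 17.75 against 3.65 to 4.00, and that of miR-148b to miR-152 was 11.07 against -1.70 to -1.41. The log2 ratio of miR-148a to miR-148b, which does not involve miR-152, was 6.68 against 5.35 to 5.44. MiR-148b made up 0.964% of the family's reads against 2.10% to 2.22%. By the same measure on log2(RPMM + 1), the plasma of cow 47 stood apart for 15 of the 209 tested names (7.18%), against 1 to 4 names for each of the other plasma libraries.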

How the results depend on the processing

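The log2 fold change of miR-148b was called in the same direction under all 14 alternatives. That of miR-148a kept its sign under all 14 and lost its call with RLE size factors (0.55), DESeq2 (0.55), the likelihood ratio test (0.58), all names with a read (0.65), a filter of 10 RPMM (0.56) and bovine names only (0.57). Leaving out each cow gave 0.38 to 0.77, called only without cow 46. MiR-152 became called without the cow block (5.81), with library totals (6.77), DESeq2 (4.97), the likelihood ratio test (5.04), the deposited RPMM (5.16), all names with a read (4.995) and a filter of 10 RPMM (4.98), and leaving out each cow gave 4.11 to 6.12. The sum became called with library totals (2.13) and robust dispersions (0.46), and leaving out each cow gave 0.30 to 0.65. Without the replicate block, that is with the pairing ignored, the log2 ratio of miR-148a to miR-148b (3.12) and the share of miR-148a (7.58 percentage points) had p = 0.0286 by the exact permutation test, the smallest that 4 against 4 allow, while the block changed no call of miR-148a, miR-148b or the sum. Leaving out a cow gave 2.84 to 3.30 for that ratio and 6.04 to 8.92 percentage points for that share. Called names numbered 178, and 331 with all names with a read, where 704 names were tested. The causes of these changes were not tested. The level of miR-152 in blood cells rests on 33 to 75 reads, and its 0 was found in the plasma of cow 47, the deepest plasma library. The part of depth in these values was not tested.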
